A study of Mus musculus with 8 samples.

Results

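The mitochondrial carrier family is encoded by the Slc25a genes. Its members were followed here in the brown fat (BAT) of mice with a sham operation (Sham) and of mice whose aorta had been narrowed by thoracic aortic constriction (TAC), which loads the left ventricle with pressure. Members were all genes whose symbol begins with Slc25a, with each symbol taken from the RefSeq accession of the array probe. There were 47 such genes on 56 probes, of 21150 named genes and 55681 probes on the array. The uncoupling proteins Ucp1, Ucp2 and Ucp3 belong to the same protein family under other symbols and are given with the partner genes. Both groups were male C57BL/6NCrSlc mice on normal chow at 23 ℃, without any engineered allele, operated on at 11 weeks of age, and by the labels the groups differed only in the surgery. The labels give 13 weeks as the age at collection and 2 weeks after surgery in most fields, but 4 weeks in the description line. Each group held 4 mice with 1 one-colour Agilent array each, and scanner values were used for Sham replicates 2 to 4 and TAC replicates 1 to 4. Sham replicate 1 was read only from the authors' table of 8 arrays.

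SLC25 carriers sit mainly in the inner mitochondrial membrane and move nucleotides, phosphate, carboxylic acids, amino acids, coenzymes and metals between the cytosol and the matrix. Because that membrane is otherwise nearly closed to such solutes, the carriers link respiration and fatty acid oxidation in the matrix to fatty acid synthesis and amino acid use in the cytosol. In BAT, acylcarnitines must enter the matrix to be burned for heat, citrate must leave it for fatty acids to be made, and branched-chain amino acids are taken up as a further fuel.

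Values are log2 probe signals relative to the 75th percentile of the same array, so that a difference of 1 is a doubling, and errors are SDs over arrays unless named otherwise. Spots well above background made up 54.5% to 64.3% of each array. All 7 arrays shared 1 slide, the Sham arrays in the upper row and the TAC arrays in the lower, and an effect of the row cannot be told apart from one of the surgery. TAC replicate 1 stood apart, at 89.6 on the first principal component of all probes against -8.58 to 3.58 for the other TAC arrays and -32.6 to -20.2 for the Sham arrays, and results are therefore also given without it. Of 33359 probes tested with limma, 0 passed an adjusted p of 0.05 in either direction. At an unadjusted p under 0.05, 8.43% of the probes were lower in TAC and 4.38% were higher. In whole tissue, fewer cells of a type and less RNA per cell cannot be told apart.

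The tissue label was checked with 10 brown adipocyte markers, among them Ucp1, Cidea and Prdm16, and all 10 were well above background on every array. As means relative to Sham, these markers were between -0.12 and 0.15 on the Sham arrays. They were at -1.09, -0.19, -0.05 and -0.49 on TAC replicates 1 to 4. Of the 10, 8 had a lower mean in TAC and 2, Pparg and Adipoq, a higher one. The low mean on TAC replicate 1 rested mostly on Elovl3 and Dio2. They read -3.78 and 0.64 there, against Sham means of 1.75 and 3.23. On that array Ucp1 was also lower, at 8.37 against 9.54. Cidea was at 10.08 against 10.48, Fabp4 at 9.59 against 9.92 and Pparg at 6.57 against 6.42. Skeletal muscle markers, 13 of 13 well above background, ranged from -0.84 to 0.81 in Sham and from -0.56 to 1.5 in TAC. All 13 had a higher mean in TAC, and as a list TAC differed from Sham by 0.87 (exact permutation p = 0.229). Macrophage markers, 8 of 9 well above background, reached 0.85 on TAC replicate 1, against -0.53 to -0.17 on TAC replicates 2 to 4 and -0.16 to 0.22 in Sham. Of the 9, 8 were highest of the TAC arrays on TAC replicate 1. The other, the dim Cd163, read -4.59 there, below its Sham mean of -3.21. Lymphocyte markers, 4 of 8 well above background, were at 0.72 on TAC replicate 1 and between -0.46 and 0.47 in Sham. The mean of only 3 white adipocyte markers reached 1.07 on TAC replicate 1, against -0.32 to 0.26 on TAC replicates 2 to 4. These 3 disagreed on TAC replicate 1. Nnat and Lep read 2.07 and 0.33 there, above their Sham means of -0.54 and -0.61, but Retn, at 4.33, was below its Sham mean of 4.66. For the endothelial and the erythroid markers, TAC differed from Sham by 0.09 and -0.09. The part of these cells in the results below was not tested.

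The members spanned nearly the whole range of brightness in Sham BAT. Of the 47 members, 28 lay above the 75th percentile of the array and 38 were well above background on all 7 arrays. The brightest was the probe of Slc25a4, an ADP/ATP carrier that exchanges ATP made in the matrix for cytosolic ADP, at 7.87 ± 0.11 (n = 3), brighter than 99.4% of all probes. The brightest 5 also held Slc25a42, a carrier of coenzyme A, at 6.53 ± 0.07, and Slc25a11, which exchanges 2-oxoglutarate for malate, at 6.24 ± 0.10. Slc25a1, the citrate carrier, was the fifth at 5.86 ± 0.30. The carnitine-acylcarnitine carrier Slc25a20 held place 9 at 4.72 ± 0.07, and the branched-chain amino acid carrier Slc25a44 place 22 at 1.01 ± 0.10. Among the 41 tested members, 19 of the 40 neighbouring pairs in this order had overlapping Sham arrays.

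**Figure D1:**
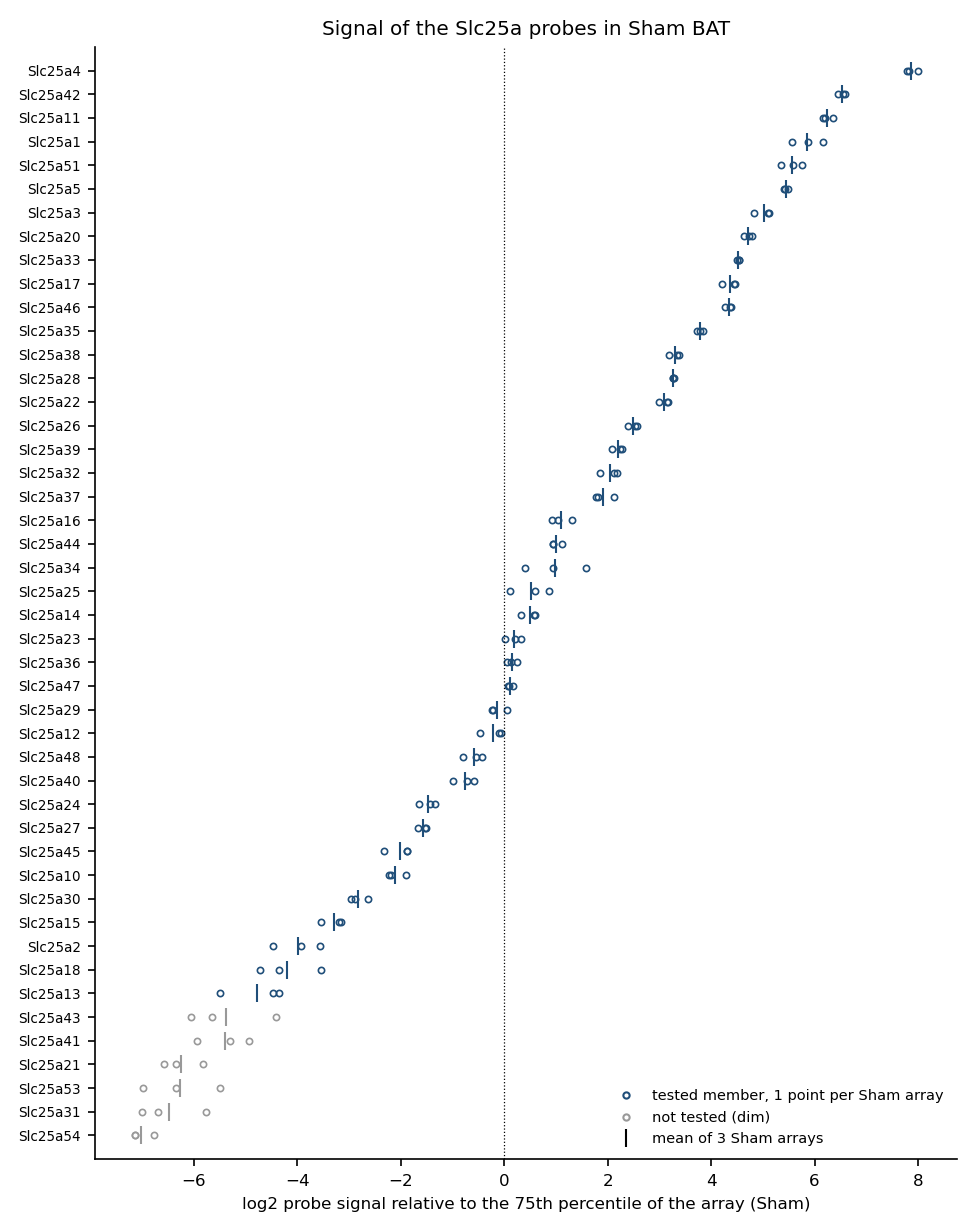
Log2 probe signal relative to the 75th percentile of the array (x axis) for 46 Slc25a members (y axis, ordered by mean) in Sham BAT, with 1 point per Sham array and a bar at the mean of 3 arrays. Slc25a4 is highest at 7.87, 27 of them lie right of the dotted line at 0, and the 6 members in grey were too dim to be tested.

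This is an order of probe signals and not of transcript amounts, because brightness also depends on the probe. Of the 9 members with 2 probes, the gap between both probes in Sham ran from 0.19 for Slc25a26 to 5.62 for Slc25a46. No member spot was saturated. The 6 members left untested were Slc25a21, Slc25a31, Slc25a41, Slc25a43, Slc25a53 and Slc25a54. Of these, 5 were not well above background on any array, and Slc25a43 was so on 1 Sham array only. Slc25a31, the ADP/ATP carrier of the testis, was among them.

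Of the 41 members tested, 30 had a mean below Sham in TAC and 11 a mean above, while 55.8% of all probes tested lay below. The median member was at -0.18, against -0.03 over all probes tested, and the members ranged from -1.47 to 0.65. At an unadjusted p under 0.05, 8 members were lower and 1 was higher, against 8.43% and 4.38% of all probes tested. Of the members, 0 passed the adjusted threshold in limma, where the smallest adjusted p of a member was 0.197. An equal-variance test without limma's sharing of information between probes gave 7 lower and 1 higher, and likewise 0 after adjustment. The shares of all probes under that test are not given here. In the table of 8 arrays, 8 members were lower and 0 higher at an unadjusted p under 0.05, against 9.56% and 4.65% of the probes. The arrays of both groups did not overlap for 9 members that were lower and 1 that was higher in TAC, against 10.5% and 5.59% of the probes measured on every array. In the table of 8 arrays, which adds Sham replicate 1, these counts were 7 and 0, against 6.3% and 3.53% of probes.

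How far below Sham the family lay depended on 1 array. The median member deviated from the Sham mean by -0.25 on TAC replicate 1, and by -0.08, -0.11 and -0.06 on TAC replicates 2 to 4. On the Sham arrays it lay between -0.01 and 0.04. TAC replicate 1 was the lowest TAC array for 24 of the 41 members and the highest for 10. It was also the array with the lowest mean of the brown adipocyte markers, at -1.09, which rested mostly on Elovl3 and Dio2. Without it, 27 members were lower and 14 higher, 53.3% of all probes lay below 0, and the member median was -0.07. The number of members at an unadjusted p under 0.05 was again 8 lower and 1 higher, against 8.45% and 4.68% of all probes in that comparison. Other scalings of the arrays left between 28 and 30 members below Sham.

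**Figure D2:**
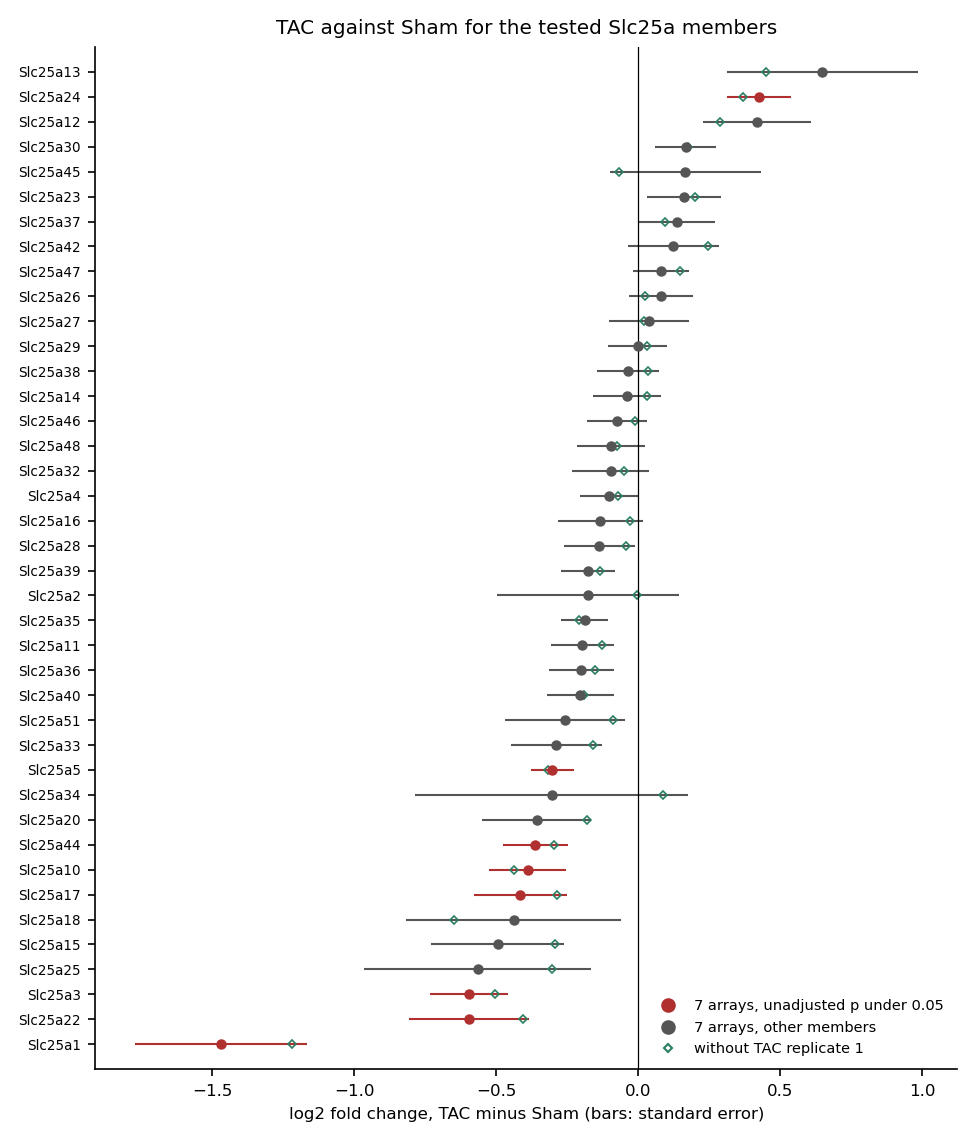
Log2 fold change of TAC over Sham (x axis) for 40 tested Slc25a members (y axis, ordered by value), as limma estimates from 7 arrays with bars for the standard error, and as open diamonds without TAC replicate 1. Slc25a1 lies alone at the lower end at -1.47, most other members lie between -0.60 and 0.20, and Slc25a24 is the only member on the higher side with an unadjusted p under 0.05.

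The carriers of citrate, dicarboxylates and acylcarnitines stood lowest as a group, with 4 of 4 tested members below Sham and a median of -0.37. The citrate carrier Slc25a1 exports citrate from the matrix, where the cytosol splits it into the acetyl-CoA from which fatty acids and sterols are built. Its log2 signal was 5.55, 6.16 and 5.87 on Sham replicates 2 to 4, and 3.64, 4.85, 4.37 and 4.71 on TAC replicates 1 to 4. Every TAC array lay below every Sham array, also with Sham replicate 1 in the table of 8 arrays. The signal in TAC was 2.77-fold lower, a log2 difference of -1.47 ± 0.30 (SE), with an adjusted p of 0.197 in limma and an exact two-sided permutation p of 0.0286, the smallest that the 35 splits of the arrays allow. Without TAC replicate 1 the difference was -1.22, and over all alternatives it lay between -1.62 and -1.13. It was the largest difference in size among the 41 members.

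The promoter of Slc25a1 is shown because this member had the largest difference. These are the 250 bases before its RefSeq start on the minus strand, chr16:17928220-17928469 in GRCm38.p6, with an E-box (CACGTG) and a CCAAT box (here as ATTGG on the opposite strand) in capitals. The E-box begins 239 bases and the CCAAT box 125 bases before the start.
Slc25a1: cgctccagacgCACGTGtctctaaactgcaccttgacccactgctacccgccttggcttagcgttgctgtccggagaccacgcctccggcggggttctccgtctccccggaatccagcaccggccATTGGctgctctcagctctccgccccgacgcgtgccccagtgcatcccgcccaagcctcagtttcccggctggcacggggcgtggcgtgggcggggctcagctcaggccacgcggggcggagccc

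The dicarboxylate carrier Slc25a10 exchanges malate and succinate for phosphate. It was dim, at -2.23, -2.20 and -1.91 in Sham and -2.35, -2.40, -2.76 and -2.49 in TAC, and the groups did not overlap. The log2 difference was -0.39 ± 0.13 (SE; adjusted p = 0.333 in limma). In the table of 8 arrays it was -0.59, as Sham replicate 1 was the highest Sham array there at -1.18.

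The 2-oxoglutarate carrier Slc25a11 serves the malate-aspartate shuttle, which brings cytosolic reducing equivalents into the matrix. It read 6.19, 6.36 and 6.16 in Sham and 5.83, 6.11, 6.04 and 6.18 in TAC, so that the groups overlapped. Its log2 difference was -0.20 ± 0.11 (SE; adjusted p = 0.490 in limma), and -0.13 without TAC replicate 1.

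The carnitine-acylcarnitine carrier Slc25a20 brings long-chain acyl groups into the matrix for oxidation. It read 4.74, 4.78 and 4.64 in Sham, and 3.84, 4.53, 4.57 and 4.52 in TAC. The TAC arrays were all below the Sham arrays, with TAC replicate 1 far below the rest, but in the table of 8 arrays Sham replicate 1, at 4.64, lay among the TAC arrays. The log2 difference of -0.36 ± 0.19 (SE) had an adjusted p of 0.472 in limma and an exact permutation p of 0.114. Without TAC replicate 1 it was -0.18.

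**Figure D3:**
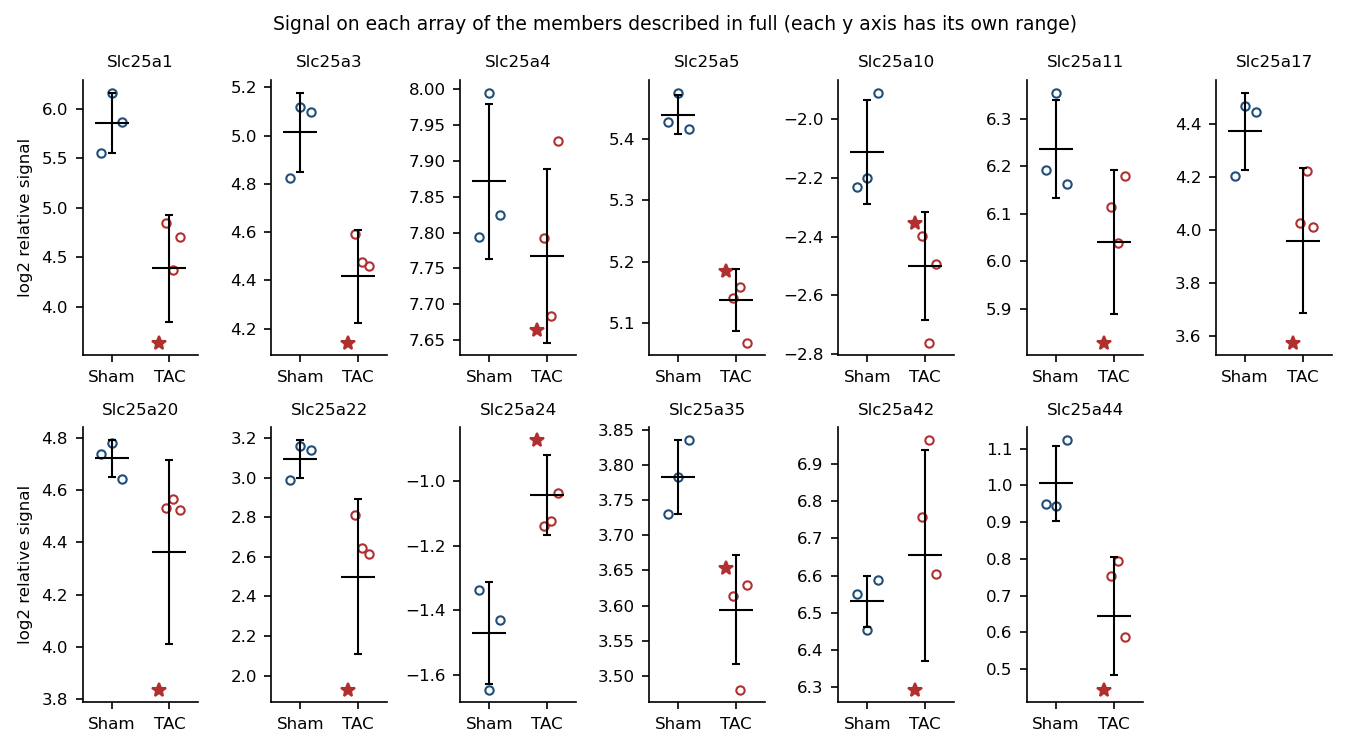
Log2 signal relative to the 75th percentile of the array (y axes, each with its own range) on each Sham (blue) and TAC (red) array for the 13 members described singly, with the mean and SD of each group in black and TAC replicate 1 as a star. In 8 panels every TAC point lies below every Sham point, and in the panel of Slc25a24 every TAC point lies above.

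Of the carriers of adenine nucleotides and phosphate, 4 of 6 tested members were below Sham and 2 above, with a median of -0.20. Slc25a3 brings phosphate, which ATP synthase needs, into the matrix. It read 4.82, 5.12 and 5.10 in Sham and 4.14, 4.59, 4.48 and 4.46 in TAC, without overlap on 7 or 8 arrays. The signal in TAC was 1.51-fold lower, a log2 difference of -0.60 ± 0.14 (SE; adjusted p = 0.205 in limma, exact permutation p = 0.0286), and -0.50 without TAC replicate 1. A second, dimmer probe of the same transcript gave -0.51, also without overlap.

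The 2 ADP/ATP carriers that were bright in BAT are given side by side. Slc25a5, the carrier of growing and many non-muscle cells, read 5.43, 5.48 and 5.42 in Sham and 5.19, 5.14, 5.16 and 5.07 in TAC. The arrays of each group lay close together, and the log2 difference was -0.30 ± 0.07 (SE; adjusted p = 0.227 in limma, exact permutation p = 0.0286). In the table of 8 arrays, however, Sham replicate 1 read 5.33 against 5.61 to 5.66 on the other Sham arrays and lay among the TAC arrays. Slc25a4, the main carrier of heart and skeletal muscle, read 7.79, 7.995 and 7.83 in Sham and 7.66, 7.79, 7.68 and 7.93 in TAC. These groups overlapped, and the log2 difference of -0.10 ± 0.10 (SE; adjusted p = 0.684 in limma) turned to 0.02 under quantile normalization. Skeletal muscle markers were at -0.84, 0.81 and 0.04 on the same Sham arrays and at 1.5, 1.11, -0.56 and 1.41 on the TAC arrays. On TAC replicate 1 these markers were highest and Slc25a4 was lowest. Among the Sham arrays, and among TAC replicates 2 to 4, both had the same order of arrays. The part of muscle RNA in the signal of Slc25a4 was not tested. The difference between both carriers was not tested either. Processed copies of Slc25a5 are known in the genome, and their signal cannot be separated from the gene here.

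Slc25a24, which exchanges ATP-Mg for phosphate under the control of calcium, was the only member that was higher at an unadjusted p under 0.05. It read -1.34, -1.65 and -1.43 in Sham and -0.87, -1.14, -1.13 and -1.04 in TAC, all above the Sham arrays. The log2 difference was 0.43 ± 0.11 (SE; adjusted p = 0.250 in limma). In the table of 8 arrays Sham replicate 1, at -0.81, exceeded 3 of the TAC arrays, and the difference was 0.29. Of its relatives, Slc25a23 was at 0.16, while Slc25a25, of the same type, was at -0.57 with wide scatter. Slc25a25 ranged from 0.10 to 0.86 in Sham and from -0.84 to 0.85 in TAC, and its 2 probes gave -0.57 and -0.56.

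The promoters of Slc25a3 and Slc25a20 are set beside that of Slc25a1 because these genes carry phosphate and acylcarnitines and were also lower on every TAC array. The windows are chr10:91123968-91124217 on the minus strand and chr9:108661886-108662135 on the plus strand in GRCm38.p6, with CCGGAAG (an ETS element) and TGACG (a cAMP response half-site, on either strand) in capitals for Slc25a3 and CCGGAAG for Slc25a20.
Slc25a3: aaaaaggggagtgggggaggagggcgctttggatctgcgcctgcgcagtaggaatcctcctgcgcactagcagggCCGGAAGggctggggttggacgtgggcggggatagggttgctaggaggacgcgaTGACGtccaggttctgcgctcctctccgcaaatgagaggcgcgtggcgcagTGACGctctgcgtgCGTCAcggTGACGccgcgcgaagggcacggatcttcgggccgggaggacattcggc
Slc25a20: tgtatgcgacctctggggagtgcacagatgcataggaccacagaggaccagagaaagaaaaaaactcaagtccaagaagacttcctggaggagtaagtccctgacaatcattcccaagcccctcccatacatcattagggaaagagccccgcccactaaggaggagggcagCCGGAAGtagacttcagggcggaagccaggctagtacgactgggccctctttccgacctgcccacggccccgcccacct

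Promoter windows were found for 36 of the 47 members, 46 windows in all, against 32851 windows in the whole RefSeq table, and each motif was sought on both strands of the 250 bases. CACGTG occurred in 8 member windows, or 17.4%, against 6.02% of all windows, in Slc25a1, Slc25a13, Slc25a14, Slc25a15, Slc25a31, Slc25a33 and Slc25a36. CCGGAAG was in 6 member windows, those of Slc25a3, Slc25a4, Slc25a17, Slc25a20, Slc25a38 and Slc25a54, or 13.0% against 6.91%. TGACG was in 23.9% of member windows against 17.8%, and CCAAT in 45.7% against 33.8%. The oestrogen-related receptor half-site AAGGTCA was in 1 member window, of Slc25a34, or 2.17% against 4.08%, and the sterol response element TCACNCCAC in 1, of Slc25a18, or 2.17% against 1.05%. Of the members with a CACGTG, Slc25a1 was at -1.47 in TAC, Slc25a15 at -0.49, Slc25a33 at -0.29, Slc25a36 at -0.20 and Slc25a14 at -0.04. Slc25a13, the dimmest member tested, was at 0.65, and Slc25a31 was too dim to be tested. The part of the motif in these values was not tested.

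Of the amino acid carriers, 7 of 9 tested members were below Sham and 2 above, with a median of -0.18. Without TAC replicate 1 it was 5 and 4, with a median of -0.01. The mitochondrial branched-chain amino acid carrier Slc25a44 is known for fuel use in BAT. It read 0.95, 0.94 and 1.12 in Sham and 0.44, 0.75, 0.79 and 0.59 in TAC, without overlap on 7 or 8 arrays. The log2 difference was -0.36 ± 0.11 (SE; adjusted p = 0.303 in limma, exact permutation p = 0.0286), and -0.29 without TAC replicate 1. A dimmer probe made for another RefSeq transcript of the gene gave 0.06, with overlapping groups, so the 2 probes of Slc25a44 disagreed in sign.

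Slc25a22, which carries glutamate with a proton, read 2.99, 3.16 and 3.14 in Sham and 1.93, 2.81, 2.65 and 2.62 in TAC. Every TAC array was below Sham, on 8 arrays too, and TAC replicate 1 was again the lowest. The log2 difference was -0.60 ± 0.21 (SE; adjusted p = 0.336 in limma), and -0.40 without TAC replicate 1. Slc25a18, a second glutamate carrier, was close to background and at -0.44. The ornithine carrier Slc25a15 was at -0.49, with overlap on 7 arrays and none in the table of 8.

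The aspartate-glutamate carriers, which complete the malate-aspartate shuttle, lay on the other side. Slc25a12 was at 0.42 ± 0.19 (SE; adjusted p = 0.416 in limma) and Slc25a13 at 0.65 ± 0.34 (SE; adjusted p = 0.461 in limma), and the groups overlapped for both. Slc25a13 was the dimmest member tested and was well above background on only 5 of 7 arrays. The glycine carrier Slc25a38, needed for haem synthesis, was at -0.04, and the basic amino acid carrier Slc25a29 stood at 99.9% of its Sham signal.

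Of the carriers of coenzymes, nucleotides and vitamins, 7 of 9 were below Sham and 2 above, with a median of -0.20 and of -0.09 without TAC replicate 1. Slc25a17, a carrier of coenzyme A and other cofactors in peroxisomes, read 4.20, 4.47 and 4.44 in Sham and 3.57, 4.03, 4.22 and 4.01 in TAC. Its groups overlapped, and the log2 difference was -0.41 ± 0.16 (SE; adjusted p = 0.367 in limma).

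Slc25a42, the coenzyme A carrier of the mitochondrion, read 6.55, 6.45 and 6.59 in Sham and 6.29, 6.76, 6.97 and 6.60 in TAC. TAC replicate 1 was the lowest array and the other TAC arrays the highest, and the log2 difference was 0.12 ± 0.16 (SE; adjusted p = 0.761 in limma), 0.24 without TAC replicate 1 and 0.02 without TAC replicate 3. The NAD carrier Slc25a51 was at -0.26, and the pyrimidine nucleotide carriers Slc25a33 and Slc25a36 were at -0.29 and -0.20, all with overlap. A second, dimmer probe of Slc25a33 gave -0.40, without overlap on 7 arrays and with overlap in the table of 8. The carrier of S-adenosylmethionine, Slc25a26, was at 0.08.

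Of the members for iron and glutathione, 3 of 4 were below Sham, with a median of -0.16 and of -0.09 without TAC replicate 1. The mitoferrins Slc25a28 and Slc25a37, which bring iron in for haem and iron-sulphur clusters, were at -0.14 and 0.14, and the second probe of Slc25a37 had the opposite sign at -0.20. The glutathione carriers Slc25a39 and Slc25a40 were at -0.18 and -0.20. The uncoupling protein-like members Slc25a14, Slc25a27 and Slc25a30 were at -0.04, 0.04 and 0.17. None of these 7 reached an unadjusted p under 0.05 in limma.

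Among the members whose substrate is little known, Slc25a35 read 3.73, 3.78 and 3.84 in Sham and 3.65, 3.61, 3.48 and 3.63 in TAC. The groups did not overlap on 7 arrays, by a log2 difference of -0.19 ± 0.08 (SE; adjusted p = 0.400 in limma), but Sham replicate 1 lay below the TAC arrays' lowest value in the table of 8, at 3.58 against 3.66. Slc25a34 scattered widely, from 0.41 to 1.58 in Sham and from -0.51 to 1.40 in TAC. Slc25a46, a protein of the outer membrane that shapes mitochondria, was at -0.08 by its bright probe and at -0.36 by the dim one. The dim probe, which did not stand for the gene in the counts, had an unadjusted p of 0.024 in limma (adjusted p = 0.335). Its groups overlapped.

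The enzymes and channels that hand substrates to these carriers were taken as 77 genes in 10 lists, of which 76 had a matched probe. The lists were chosen with earlier results of these data known, so the counts below describe them and test nothing. In TAC 61 were below Sham and 15 above, against 55.8% of all probes below. At an unadjusted p under 0.05, 21 were lower and 2 higher, against 8.43% and 4.38% of probes, and 0 passed the adjusted threshold in limma. The groups did not overlap for 25 that were lower and 3 that were higher, against 10.5% and 5.59% of probes, and in the table of 8 arrays for 17 and 1, against 6.3% and 3.53%. The list around Slc25a1, on making citrate and building fatty acids from it, had the lowest median of the 10 at -1.55. All 10 of its genes were below Sham, 8 of them at an unadjusted p under 0.05 and without overlap between the groups. Acly, which splits exported citrate, was at -1.88 and Acss2, which makes acetyl-CoA from acetate, at -1.71. Acaca, the first step of fatty acid synthesis, was at -1.72 and its mitochondrial counterpart Acacb at -0.35. Fasn, the fatty acid synthase, was at -2.94 with TAC replicate 1 and at -2.03 without it. Me1, which yields NADPH, was at -1.88, the elongase Elovl6 at -1.38 and the desaturase Scd1 at -0.87. Citrate synthase (Cs), which makes citrate inside the matrix, was at -0.20, and its groups overlapped.

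**Figure D4:**
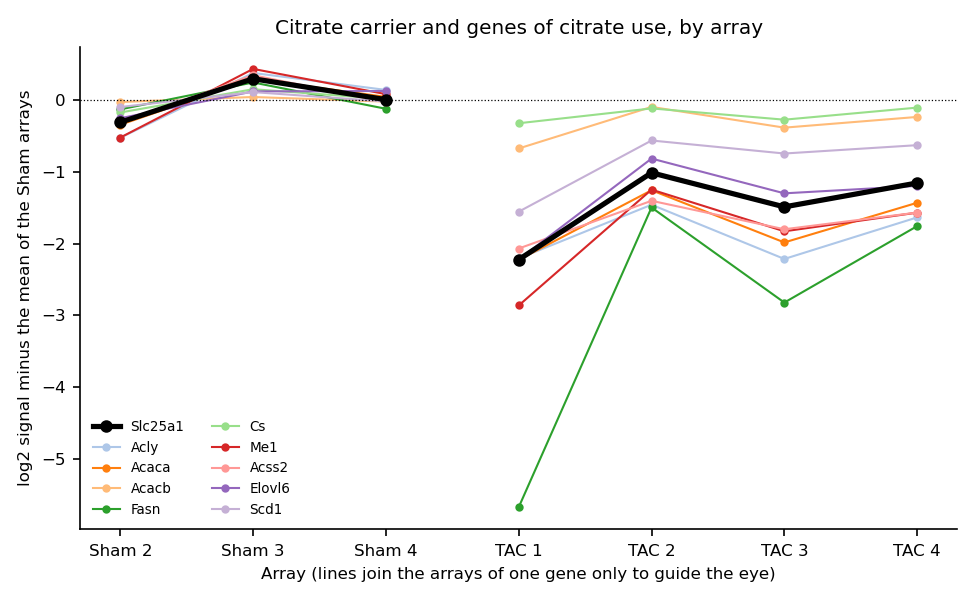
Log2 signal minus the mean of the 3 Sham arrays (y axis) on each of the 7 arrays (x axis) for Slc25a1 (thick black line) and 9 genes of citrate formation and fatty acid synthesis. On all 4 TAC arrays Slc25a1 lies below every Sham array, as do Acly, Acaca, Acacb, Acss2, Me1, Elovl6, Scd1 and Fasn. Cs is below the Sham mean on all 4 TAC arrays, with a mean of -0.20, but overlaps with the Sham arrays.

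In the carnitine shuttle 7 of 8 genes were below Sham, with a median of -0.23. This became 6 of 8 and -0.13 without TAC replicate 1. Cpt2, which reforms acyl-CoA behind Slc25a20, was at -0.44 and the acyl-CoA synthetase Acsl5 at -1.36, both without overlap, while Cpt1b, the muscle-type enzyme in front of it, was at -0.18 with overlap. Of branched-chain amino acid oxidation, around Slc25a44, 9 of 10 genes were below Sham with a median of -0.11. This became 7 of 10 and -0.02 without TAC replicate 1. Of this pathway, the transaminase Bcat2 was higher on every TAC array, at 0.50. The dehydrogenase subunit Dld was lower on every TAC array, at -0.35, but both overlapped in the table of 8 arrays.

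Of the malate-aspartate and glycerol phosphate shuttles, served by Slc25a11, Slc25a12 and Slc25a13, 4 of 6 genes were below Sham, with a median of -0.29. This became 5 of 6 and -0.23 without TAC replicate 1. The malate dehydrogenases Mdh1 and Mdh2 were at -0.40 and -0.33, and the glycerol phosphate dehydrogenase Gpd2 at -0.81. Got2, the mitochondrial aspartate aminotransferase, was higher on every TAC array at 0.59, and at 0.28 without TAC replicate 1, but overlapped in the table of 8 arrays, as did Mdh2 and Gpd2. Both subunits of the pyruvate carrier, Mpc1 and Mpc2, which is of another family, were without overlap at -0.72 and -0.54. In that list 5 of 6 genes were below Sham, with a median of -0.17 and of -0.14 without TAC replicate 1. The calcium uniporter subunit Smdt1 was at -0.25, with overlap in the table of 8 arrays.

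Ucp1, which carries the proton leak that makes heat, was at -0.61, and at -0.42 without TAC replicate 1, without overlap on 7 or 8 arrays. Its relatives Ucp2 and Ucp3 were at 0.34 and -0.15 with overlap. Of that list 3 of 5 genes were below Sham, also without TAC replicate 1. Of the outer membrane channels, through which many carried solutes pass, Vdac1, Vdac2 and Vdac3 were at -0.25, -0.16 and -0.19. Each was lower on every TAC array, but with Sham replicate 1 in the table of 8 arrays only Vdac3 stayed without overlap. In that list 5 of 8 genes were below Sham, with a median of -0.07. This became 4 of 8 and -0.03 without TAC replicate 1.

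Of the genes of iron, haem and iron-sulphur clusters 8 of 9 were below Sham, with a median of -0.13. The median was -0.06 without TAC replicate 1. Fech, which puts iron into haem, was at -0.22 and Nfs1 at -0.15, without overlap on 7 arrays and with overlap in the table of 8. Of the glutathione genes 6 of 7 were below Sham, with a median of -0.06. Only 4 of 7 were below without TAC replicate 1, again with a median of -0.06. Over all 7 arrays Gclm was at -0.41 and Gsr at -0.32, lower on every TAC array. Gss was at 0.31, higher on every TAC array. Of the genes of folate, one-carbon and NAD metabolism 4 of 7 were below Sham, with a median of -0.04. The median was -0.01 without TAC replicate 1. None of the 7 reached an unadjusted p under 0.05.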

How the data were processed

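Total RNA of BAT was labelled with Cy3, and the authors read the arrays with Agilent Feature Extraction 10.7.1.1, per the labels and the submitters' processing notes. The deposited scanner values are intensities on a linear scale, already background-subtracted. The authors' table of 8 arrays holds the same intensities divided by a constant for each array near its 75th percentile (at least 99.8% of values above 100 units lay within 1% of that constant multiple). How it was made is not given in the sources used here.

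From 59305 spots per array, 134 to 191 spots marked as outliers were left out. Intensities were converted to log2, the 75th percentile of the array was subtracted, and spots of a probe were averaged. Testing required a signal well above background on 3 or more of 7 arrays and values from 2 or more arrays in both groups. The groups were compared with limma 3.58.1 in R 4.3.3, without a block, with Benjamini-Hochberg adjustment over 33359 probes. The script was tested on simulated data. Single members were also compared with an exact two-sided permutation test. The number of arrays limits the precision.

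Symbols came from a RefSeq table (GRCm38.p6), which named 28020 probes (50.3%), and 94.0% of those with a RefSeq accession. Promoter sequences are RefSeq's on that build, and no coordinates of the array, designed on another build, are given. The brightest probe stands for a gene, and role groups and partner lists come from textbook knowledge. Described singly were members with an unadjusted p under 0.05 or without overlap, Slc25a1, Slc25a20, Slc25a44 and the 5 brightest in Sham, of which 1 member is not reported here, nor is 1 partner gene, though counts and medians include both. The members, lists and rules were chosen with earlier results of these data known, and the motifs after the values were seen. The mice are separate animals per the series text. Alternatives were background correction, scaling, source of values, filters, variance model, array weights, the methods' t-test, replicate block, probe choice, each array left out, and, added after seeing the data, the authors' table without TAC replicate 1.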

Additional observations from a re-analysis of the deposited data

Results flagged for a closer look

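Of 29 groups of 4 arrays examined for a lone array among the members that the rule selects, 2 had one, and chance gives about 1 in 20. For Slc25a20, TAC replicate 1 read 3.84 against 4.52 to 4.57 on the other TAC arrays, a gap that took a share of 0.939 of the range. For Slc25a5, Sham replicate 1 in the authors' table read 5.33 against 5.61 to 5.66 on the other Sham arrays, a share of 0.833 of the range.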

How the results depend on the processing

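The median of the members was below 0 in 22 of 22 alternatives. It was -0.062 with array weights, -0.070 with the replicate number as a block, and -0.043 in the authors' table without TAC replicate 1, and it ranged from -0.185 to -0.070 with 1 array left out. Without TAC replicate 4, 6 higher and 1 lower of all probes passed the adjusted threshold (0 to 6 and 0 to 1 over the arrays left out). Normexp background correction, the authors' table over 7 arrays and array weights each gave 1 lower probe. With 1 array left out, 891 to 1562 probes were higher and 1601 to 2993 lower at an unadjusted p under 0.05, both lowest without Sham replicate 3. The members higher at that p were 3 under normexp, 0 in the table of 8 arrays, 2 there with the replicate block, 2 with an intensity trend, and 1 to 2 with 1 array left out. The members lower at that p were 3 to 8 with 1 array left out, with the 3 found without Sham replicate 4. For most of these settings the share of all probes is not given, so these counts cannot be set against it. The median of the malate-aspartate and glycerol phosphate list was -0.16 under quantile normalization. That of the uncoupling protein list was -0.44 for the mean of all probes and -0.26 to -0.021 with 1 array left out, and that of the glutathione list -0.17 for the mean of all probes. Slc25a4 turned to 0.017 under quantile normalization. The causes were not tested. Of the members that the rule selects, 295 of 296 values kept their sign and stayed on the same side of the adjusted threshold, and 216 of 220 list medians moved by less than the spread between arrays. Same-numbered arrays correlated at -0.03 to 0.00 in the scanner values and 0.02 to 0.27 in the table. So few arrays cannot show whether the numbers pair the mice. The block changed no call past the adjusted threshold, which 0 probes passed in the main fit. The mean of all probes was not run for counts over all probes. Signal near background limits Slc25a2, Slc25a13 and Slc25a18.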
